A study of Homo sapiens with 24 samples.

Results

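The antisense and intergenic noncoding RNAs that carry a name of their own on the array were followed from total RNA into the ribosome pools of lung fibroblasts under oxidative stress (OS). They were chosen by name: a catalog probe entered where its RefSeq accessions were only non-coding and its gene name ended in AS, IT or OT, with or without a number, or began with LINC or NCRNA; 1 antisense name of this form was left out by the rule itself. The rule found 128 probes for 122 gene names, of 17535 catalog probes for 15102 names. By the form of the name, 54 are antisense RNAs, 64 are intergenic, 1 is intronic and 3 are overlapping transcripts. RefSeq held a record for 114 of the 122 names. It gave 31 of the names a newer symbol, so ZNFX1-AS1 is now ZFAS1 and LINC00346 is PRECSIT. Some probes matched records of more than 1 gene, as that of LINC00152 did with CYTOR and MIR4435-2HG. For 2 names, LINC00085 and LINC00238, the gene of the record is now listed as protein-coding, and for 3 as a transcribed pseudogene. The names of the array are kept here.

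MRC5 cells, an established line of human lung fibroblasts, were left untreated (control, 0 mM) or were given 0.2 mM hydrogen peroxide for 2 hr (OS). From each condition total RNA was taken, and the lysate was separated on a sucrose gradient into an untranslated pool (free ribonucleoproteins and single ribosomes), a low pool (RNA with few ribosomes) and a high pool (RNA with more ribosomes). Each of the 8 groups had 3 arrays, 24 in all, in a single colour, and translation was stopped with cycloheximide before lysis. A single line cultured in 1 laboratory stands behind all groups, and the study's methods give 3 rounds, each with its own RNA preparation, without saying whether the cultures were separate. Replicates 1 and 2 of the control untranslated pool share a number in their labels; the SD of their difference was 0.942, beside 0.981 and 0.934 for the other pairs of that group, and they were kept as separate replicates. Every p-value measures the spread between these samples, estimated for each probe over all 8 groups together. A p-value for 2 groups therefore also depends on the spread of the probe in groups that were not compared. The labelling started from the poly(A) tail, so RNAs without one were not measured.

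Antisense RNAs are read from the strand opposite a gene and often start near its promoter, while intergenic RNAs lie apart from coding genes. Many stay in the nucleus, but others are exported and found with ribosomes, where they may be scanned, translated into short peptides or simply bound. Hydrogen peroxide oxidises cellular components, induces stress transcription factors such as ATF3 and represses the initiation of translation.

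The labels were checked first. All 4 fibroblast markers with a probe, of 9 listed, were well above background in every total RNA sample, with mean normalized log2 signals in control of 17.78 ± 0.04 (SD, n = 3) for COL1A1, 10.76 ± 0.06 for COL3A1, 15.81 ± 0.02 for THY1 and 11.57 ± 0.13 for LUM. Of the epithelial markers, KRT5 was well above background on no array and EPCAM on 0 of 3 control and 2 of 3 OS arrays of total RNA, while the surfactant gene SFTPC was measured on all 6 and rose from 6.09 to 7.11 (adjusted p = 0.0013). The endothelial marker VWF was not well above background on any array, CDH5 was measured at 6.22, and 1 of 3 probes of the leukocyte marker PTPRC was measured, at 6.12. Of the 4 probes of ATF3, 3 rose 26.9- to 29.5-fold in OS total RNA, and the other had a difference of 0.68 (adjusted p = 0.11). EGR1 read 14.64, 13.65 and 13.42 in control and 14.63, 14.80 and 14.86 in OS, which overlap, and its difference of 0.86 was not called (adjusted p = 0.066). The other 3 genes of the treatment list had no catalog probe. The part of other cell types in the results was not tested.

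On 1 array, replicate 3 of the OS low pool, 93.3% of custom and 95.42% of catalog probes were called well above background by the scanner software, against at most 36.35% and 67.76% on the other 23. On it 117 of the 128 member probes passed, against 22 to 51 elsewhere. It was left out, so that OS low rests on 2 arrays. Over the remaining 23 arrays, 57 member probes were well above background nowhere and 17 were so in every sample of all 8 groups. A probe was tested in a comparison when it was well above background in every sample of at least 1 group compared, which 50 of the 128 managed in some comparison. Counts and medians of tested members therefore describe the brighter members and are not a property of all 128. By group, 37 probes were measured in every sample of control total RNA and 42 in OS total RNA, 22 and 24 in the untranslated pool, 38 and 44 in the low pool, and 29 and 35 in the high pool.

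**Figure D1:**
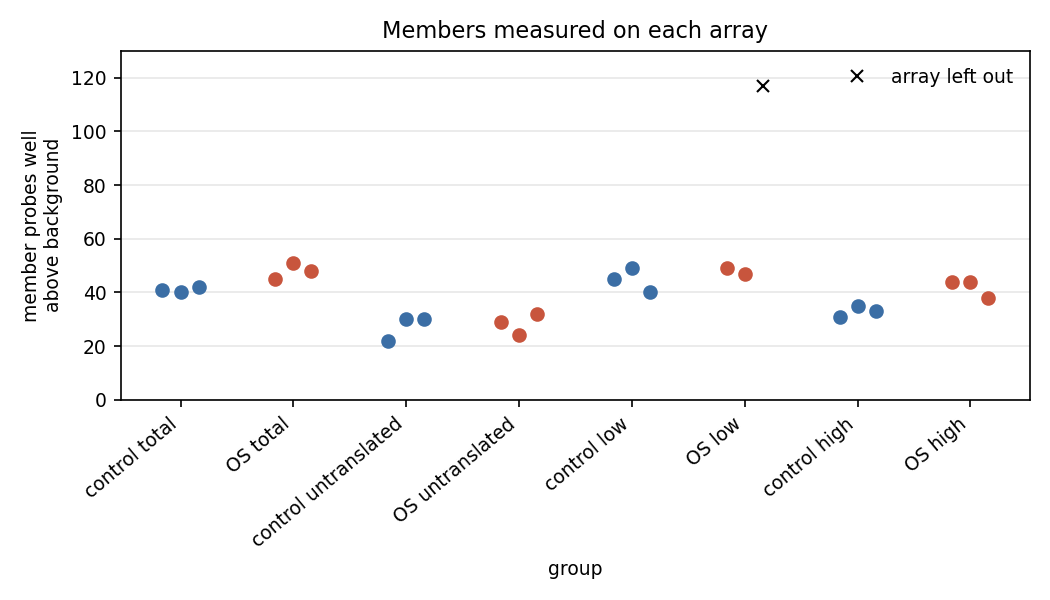
Number of the 128 member probes well above background on each array (y axis), by group (x axis); blue points are control arrays, red points OS arrays and the cross is the array left out. The 23 arrays kept lie between 22 and 51 probes, and the array left out at 117.

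Total RNA shows what the cell holds of an RNA, whether or not ribosomes bind it. A short exposure to peroxide leaves time for new transcription and for decay, and an array cannot tell them apart. Nor can fewer molecules per cell be told apart from fewer cells holding the RNA. Of 44 members tested, 10 were called at an adjusted p under 0.05 (limma with Benjamini-Hochberg adjustment over all tested probes), 8 of them higher and 2 lower. This is 22.7% of the members tested, where 16.4% of all 22366 tested probes were called, 8.52% higher and 7.86% lower, and most of the called members were up-regulated. The distance of the members from this background was not tested. Of the 8 higher calls, 4 passed the signal filter only through OS, the group where they are high, which sets part of this direction; with both groups required to pass, 4 were called higher and 2 lower. The median log2 difference of the 44 tested members was 0.14, beside -0.03 over all tested probes. The split depended on the scaling: it was 6 higher and 3 lower when all probes were quantile-normalized together, 8 and 4 when arrays were scaled to the 75th percentile, and 5 and 3 after normexp background correction. That 75th percentile scaling moves the median of all probes by itself, to -0.22 in total RNA, -0.11 in the untranslated, -0.18 in the low and -0.28 in the high pool. Each of the 10 members kept its direction under all 5 other scalings, and 5 also kept their call under all of them. Leaving out 1 array gave 7 to 9 calls. RFPL3-AS1 ranged from 5.10 to 5.38 in control and from 7.31 to 7.89 in OS total RNA, yet was not called. The spread used for it was shared with the pools, where its SD was 2.07 in control untranslated and 1.66 in control low RNA.

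Among the antisense RNAs, IDI2-AS1 lies opposite the isopentenyl diphosphate isomerase gene IDI2. Its normalized log2 signals were 5.21, 5.15 and 4.82 in control and 7.29, 7.56 and 7.21 in OS total RNA. All 3 OS samples lay above all 3 control samples, and no control array was well above background, so only a bound can be given. The bound sets the mean of the bright group against the dimmest catalog probe that still passed on the dim arrays, or the probe's own signal where that was higher. The bounds given are those of the main normalization, with catalog and custom probes apart. They do not hold as bounds over the other scalings. Some of these gave smaller differences, as for IDI2-AS1 here, RAD21-AS1 in the low pool, and PPP2R3B-AS1 and DICER1-AS in the high pool. IDI2-AS1 was at least 4.67-fold higher upon OS (difference 2.29, SE 0.34, adjusted p = 8.8e-05). It was called under all 5 other scalings, with differences of 1.05 to 2.26. Its partner IDI2 was too dim to be tested.

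RAD21-AS1, antisense to the cohesin subunit gene RAD21, read 3.32, 3.22 and 3.85 in control and 5.31, 4.90 and 5.45 in OS. It too was measured in OS only, at least 1.19-fold higher (difference 1.76, SE 0.34, adjusted p = 0.0011), and of the 5 other scalings only normexp lost the call (0.38, adjusted p = 0.054). RAD21 on the opposite strand had a difference of -0.13 (adjusted p = 0.48). ZNF295-AS1 was at 5.06, 5.40 and 5.26 in control, with 2 of 3 arrays well above background, and at 6.34, 6.78 and 6.03 in OS. The groups did not overlap, and it was called higher (1.14, SE 0.32, adjusted p = 0.02), a size that rests partly on an unmeasured control signal. This call was lost when any 1 of 4 arrays was left out (control replicate 1 or 3, OS replicate 1 or 2; 0.95 to 1.16), after normexp (0.38) and with all 24 arrays (1.11). Another 6 custom probes of ZNF295-AS1 transcripts gave differences of 0.79 to 1.96 in total RNA, 4 of them called.

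LINC00426 was 1 of the intergenic RNAs called higher. Its signals were 3.06, 3.17 and 3.12 in control and 5.70, 5.56 and 5.95 in OS total RNA. The 3 OS samples were the only arrays among the 23 on which it was well above background, as none of the 17 arrays of the pools measured it. It rose at least 1.69-fold (difference 2.62, SE 0.12, adjusted p = 2.8e-11). Its SE also draws on the pool arrays, none of which measured it. The probe occupies chr13:30914500-30914559 on the minus strand of GRCh37.

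LINC00346 (PRECSIT), named for its regulation by p53 and its activation of STAT3, was measured in both conditions. Its values were 6.51, 6.49 and 6.38 in control and 7.37, 7.66 and 7.34 in OS total RNA. OS samples were all higher, and the rise was 1.99-fold (0.99, SE 0.20, adjusted p = 0.0016). Smaller rises without overlap were called for LINC00467 (0.49), LINC00476 (0.61) and the antisense RNA ZNF503-AS2 (0.48). The latter pair was called under none of the 5 other scalings, and LINC00467 under 3 of them.

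Down-regulated members in total RNA were LINC00265 and LINC00085. LINC00265 went from 7.52, 7.32 and 7.42 to 5.89, 6.59 and 6.26, with all OS samples below all controls. It fell 2.25-fold (-1.17, SE 0.30, adjusted p = 0.01), which without OS replicate 1 became -0.99 (adjusted p = 0.064). Its probe also matches records of LINC00999, LINC01000 and LINC01347, so the fall cannot be assigned to the LINC00265 gene alone. LINC00085, whose record now belongs to the coding gene SPACA6, was at 8.73, 8.66 and 8.78 in control and 7.91, 7.86 and 7.81 in OS. It fell 1.82-fold (-0.86, SE 0.12, adjusted p = 3.3e-05) with a gap between the groups wider than the range within either.

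**Figure D2:**
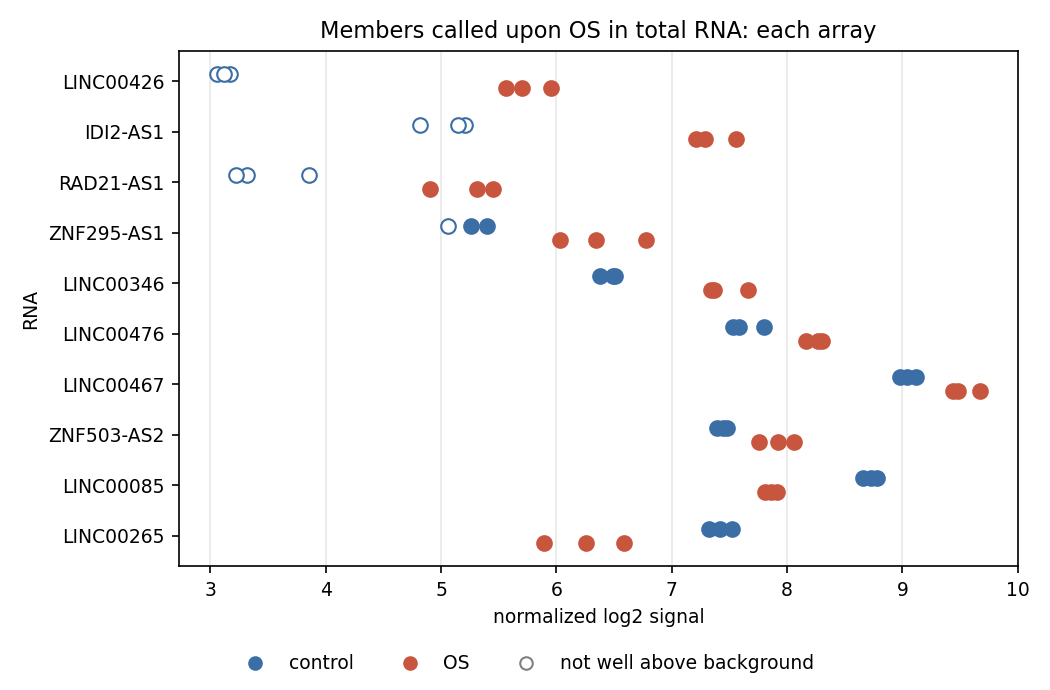
Normalized log2 signal (x axis) of each total RNA array for the 10 members called upon OS in total RNA (y axis); blue is control, red is OS, and open points were not well above background. The OS and control points of LINC00426, IDI2-AS1 and RAD21-AS1 are separate with all controls open, and LINC00265 and LINC00085 lie lower in OS; all 10 directions held under the 5 other scalings.

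The promoters of the members were searched for 4 motifs on both strands, over 300 bases around the start, in the RefSeq windows of GRCh38.p14 that 79 members had. The AP-1 motif (TGAGTCA or its reverse complement TGACTCA), bound by FOS and JUN proteins, was in 5 member promoters (6.33%) and in 4.95% of 35116 promoters of all genes. The CRE motif (TGACGTCA), bound by CREB and ATF proteins, was in 3 (3.8% against 1.85%). CCAAT was in 22 (27.8% against 34.6%) and TATAAA in 6 (7.59% against 11.5%). Of the 23 promoters of members called in any comparison, the gradient in control included, 2 held AP-1, 1 CRE, 7 CCAAT and 4 TATAAA. The promoter of the up-regulated LINC00346 held 2 AP-1 matches. That of LINC00265 held the CRE match, but LINC00265 is only 1 of the genes that its down-regulated probe matches. LINC00152 had a total RNA difference of 0.06 that was not called (adjusted p = 0.79). Its promoter, taken from CYTOR, also held AP-1, in 2 copies whose starts lie 10 bases apart. The window shows the first in capitals. The sequences are shown to place these matches, which are in capitals and describe the letters only. LINC00346 lies at chr13:110870388-110870417 and chr13:110870332-110870361 on the minus strand, LINC00265 at chr7:39733359-39733388 on the plus strand and LINC00152 at chr2:87455397-87455426 on the plus strand.
LINC00346 AP-1, first match: atgaccagcgcTGAGTCAgtctaggagcag
LINC00346 AP-1, second match: ccacgtcagcaTGACTCActcaagcaacgg
LINC00265 CRE: cccagctaccgTGACGTCAcgagacccccg
LINC00152 AP-1: agtggtggctaTGAGTCAgcatgagtcatc

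The untranslated pool holds RNAs free of ribosomes or with a single one. An RNA may gain there when it leaves polysomes, and may lose when it is degraded or taken into polysomes. Of 26 members tested, 10 were called, 2 higher and 8 lower. That is 38.5% beside 37.5% of all 15026 tested probes (17.8% higher, 19.7% lower), so the number is near the background, while its direction is mostly downward. The median of the tested members was -0.20, beside -0.01 over all tested probes. With both groups required to pass the signal filter, 2 were called higher and 6 lower. Leaving out 1 array gave 5 to 12 calls. Scaled to the 75th percentile, 3 were called, 1 higher and 2 lower; over all probes that scaling moves the share called higher from 47.4% to 58.7% of the calls. The values of 1 member that the naming rule also chose are not given, although it is counted.

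LINC00341 stood apart in this pool. It read 9.28, 9.42 and 9.27 in control and 11.19, 11.08 and 11.06 in OS, with a gap between the groups far wider than the spread within them. The rise was 3.44-fold (1.78, SE 0.10, adjusted p = 8.9e-10) and was called under all 5 other scalings (1.69 to 1.92) and without any 1 array (1.75 to 1.83). In total RNA it was at 11.67, 11.42 and 11.39 in control and 11.37, 11.34 and 11.17 in OS, a difference of -0.20 that was not called (adjusted p = 0.25). Its accession is not in the RefSeq table used here, and the probe occupies chr14:95873689-95873748 on the minus strand of GRCh37. The first 30 of its 60 bases are given so that the transcript can be found again.
LINC00341 probe: ttgacgttttcctccccttccttttgtgca

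All 5 antisense RNAs called in the untranslated pool were lower upon OS. OIP5-AS1, a conserved cytoplasmic RNA known to hold a site for miR-7, was at 11.48, 11.44 and 11.42 in control and 10.64, 11.19 and 10.86 in OS. All OS samples were lower, though their spread was wider, and the difference was -0.55 (SE 0.16, adjusted p = 0.012). It was lost without OS replicate 1 (-0.42, adjusted p = 0.073). ZNF503-AS2 went from 9.01, 8.65 and 8.67 to 8.28, 7.88 and 7.83, again without overlap (-0.78, SE 0.13, adjusted p = 0.00017), although it was called as higher in total RNA. BDNF-AS1, antisense to the neurotrophin gene BDNF, went from 7.81, 6.75 and 7.63 to 6.12, 6.36 and 6.32, where only 1 of the OS arrays was well above background. Its difference of -1.13 (SE 0.39, adjusted p = 0.031) was called under 1 of 5 other scalings and was lost when any of 5 of the 6 arrays was left out (-1.19 to -0.93), and its size rests partly on unmeasured OS signals. FBXL19-AS1 fell from 7.21, 6.77 and 7.00 to 4.90, 6.24 and 6.74, also measured on 1 OS array. OS replicate 1, not well above background, carried much of the computed difference of -1.04 (SE 0.30, adjusted p = 0.012), which without it was -0.51 (adjusted p = 0.057), so the size of the fall was not measured. The other called members here were A1BG-AS1 (-0.49), LINC00340 (-0.49), LINC00085 (-0.35, overlapping) and LINC00346 (0.53, overlapping). Of the 5 other scalings, 4 called A1BG-AS1, 4 LINC00340, 2 LINC00085 and 3 LINC00346.

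The low pool holds RNAs with few ribosomes, as short reading frames can carry. Non-coding RNAs with a short frame near their start may sit in it. Of the members, 7 of 46 tested in the low pool were called, all 7 higher and 0 lower. This is 15.2% beside 9.51% of all 23435 tested probes (5.87% higher, 3.64% lower), with a median of 0.13 beside -0.04. Of the 7, 2 passed the signal filter only through OS, and 5 were called with both groups required to pass. No array could be left out without loss, as 3 to 5 were then called. The count of 0 lower is from limma, and 12 members had an unadjusted p under 0.05. Normalization of all probes together left 3 called, all higher, the 75th percentile 2, all higher, and normexp 4, of which 1 was lower. RAD21-AS1 read 3.1, 3.22 and 3.20 in control, and 5.56 and 6.0 on the 2 OS arrays kept. No control array was well above background and both OS arrays were, so it was at least 2.03-fold higher (difference 2.61, SE 0.38, adjusted p = 0.00017). This was called under all 5 other scalings, with differences of 0.54 to 2.94, and without any 1 array. LINC00341 rose here as well, from 9.82, 9.87 and 9.93 to 10.60 and 10.57 (0.71, SE 0.12, adjusted p = 0.00079; 0.41 and not called at the 75th percentile). LINC00346 rose from 7.36, 7.37 and 7.44 to 8.01 and 8.58 (0.91, SE 0.22, adjusted p = 0.013), but not past the threshold without OS replicate 2 (0.62, adjusted p = 0.27) or at the 75th percentile (0.71, adjusted p = 0.057).

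RFPL1-AS1, opposite the gene of a RET finger protein-like factor, read 4.18, 3.93 and 4.61 in control low and 5.19 and 5.42 in OS low. It was measured in OS only, at least 1.46-fold higher (difference 1.07, SE 0.33, adjusted p = 0.047), and none of the 5 other scalings called it. None of them called TTC28-AS1 in this pool (0.81), LINC00475 (0.50) or LINC00476 (0.66) either, which were measured on every array compared. With the left-out array added, the differences of LINC00346 and TTC28-AS1 in the low pool turned negative, as that array read 5.27 and 3.33 for them.

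The high pool holds RNAs with many ribosomes, most of them mRNAs in translation. A non-coding RNA in it may be bound by ribosomes or lie in another heavy complex, which the gradient does not separate. Of 36 members tested, 6 were called, all 6 higher. This is 16.7% beside 13.9% of 19604 probes (8.78% higher, 5.14% lower), a share near the background. Of the 6, 4 passed the signal filter only through OS high, the group where they are high, so the shared direction is partly set by the filter; with both groups required to pass, 2 were called. The median was 0.16 beside -0.03. The count of 0 lower is from limma, 13 members had an unadjusted p under 0.05, and normalization of all probes together gave 6 higher and 1 lower. All 6 kept their direction under the other scalings, and leaving out 1 array gave 3 to 6 calls.

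PPP2R3B-AS1 lies in the pseudoautosomal region shared by the sex chromosomes. Its array name sets it antisense to a regulatory subunit gene of protein phosphatase 2A, but RefSeq now lists it as LINC00685, an intergenic form of name. In the high pool it was measured upon OS only. In total RNA it was measured on every array, at 7.48, 7.28 and 7.52 in control and 8.06, 8.16 and 7.64 in OS. In control it was well above background on no array of any pool, with high pool signals of 2.99, 2.96 and 3.55. Upon OS the high pool read 7.03, 6.24 and 6.99, all well above background and all above the control samples. The RNA was at least 3.14-fold higher (difference 3.59, SE 0.35, adjusted p = 1.2e-06). It was called under all 5 other scalings, with differences of 1.48 to 4.13, and without any 1 array. In the OS low pool it was measured on 1 of 2 arrays (5.39 and 3.91), and in the OS untranslated pool on none (2.99, 2.98 and 3.94). The total RNA difference of 0.53 was not called (SE 0.35, adjusted p = 0.38). A pair of custom probes of the same transcript, 1 of them identical in sequence, gave high pool differences of 4.30 (adjusted p = 1.6e-10) and 4.22 (adjusted p = 4.1e-11), with 0 of 3 control and 3 of 3 OS arrays measured.

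DICER1-AS, antisense to the gene of the microRNA-processing enzyme DICER1, was at 4.14, 4.83 and 4.58 in control high and 6.28, 6.08 and 6.43 in OS high. In this pool it was measured in OS only and was at least 2.24-fold higher (difference 1.75, SE 0.43, adjusted p = 0.01). Without control replicate 1 the adjusted p was 0.055 (1.55), and the 5 other scalings called it at 0.71 to 2.00. In total RNA DICER1-AS ranged from 5.45 to 5.63 in control and from 6.39 to 6.61 in OS. Its low pool values were 5.87 to 6.07 and 7.19 to 7.46. Neither of these 2 differences was called. In the high pool ZNF295-AS1 went from 4.64, 5.00 and 3.95 to 5.33, 5.91 and 5.63, at least 1.43-fold higher (difference 1.10, SE 0.32, adjusted p = 0.029). This was not called without any 1 of 4 arrays (control replicate 1 or 3, OS replicate 2 or 3; 0.80 to 1.15) or after normexp (0.35). ZEB1-AS1, which shares its promoter region with the epithelial-mesenchymal transition factor ZEB1, went from 5.70, 5.91 and 6.13 to 6.69, 7.00 and 6.94. The groups did not overlap (0.96, SE 0.31, adjusted p = 0.046), but leaving out any 1 of the 6 arrays ended the call (0.85 to 1.06). In total RNA ZEB1-AS1 ranged from 5.70 to 6.03 in control and from 6.68 to 6.81 in OS. Its low pool values were 6.89 to 7.18 and 7.81 to 8.10. It was called in neither. LINC00341 rose in the high pool too, from 10.15, 9.93 and 9.91 to 10.63, 10.36 and 10.35 (0.45, SE 0.11, adjusted p = 0.0068). This was called under 4 of the 5 other scalings (0.34 to 0.41).

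TTC28-AS1 has 2 probes, 1 for each of 2 accessions, of which the first was called in the high pool upon OS. The sequences of their first 30 bases are shown so that the 2 can be told apart. The first lies at chr22:28320884-28320943 and the second at chr22:28398539-28398598, both on the plus strand of GRCh37.
TTC28-AS1 A_33_P3362143: catctgtggattgttctgtcacttattttc
TTC28-AS1 A_33_P3362148: aacccaaagtgacacatgcctggcgggatg

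By the first probe the RNA was at 4.67, 5.41 and 4.84 in control high, where 1 of 3 arrays was well above background, and at 5.89, 6.03 and 6.35 in OS high. It was called higher without overlap (1.11, SE 0.21, adjusted p = 0.0014), a size that rests partly on unmeasured control signals, and 2 custom probes of identical sequence gave 1.43 (adjusted p = 0.0017) and 0.85 (adjusted p = 0.22). The second catalog probe had a difference of 0.42 that was not called, while its identical custom probe was called at 0.71 (adjusted p = 0.0081). In control the first probe read 8.89, 8.57 and 8.76 in the untranslated pool, above all its high pool values (-3.76, SE 0.21, adjusted p = 1.7e-11), and its identical custom probes gave -2.76 and -1.95. The second read 6.35, 5.36 and 5.28 in the untranslated pool, on no array well above background, and 6.40, 6.39 and 6.22 in the high pool. Its groups overlap, and the dimmest catalog probes that passed on those untranslated arrays were at 6.99, 6.33 and 6.26, so its call (0.67, adjusted p = 0.013) alone sets no direction. Its identical custom probe gave 1.98, called under all 5 other scalings, again with no control untranslated array well above background, so the size was not measured.

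**Figure D3:**
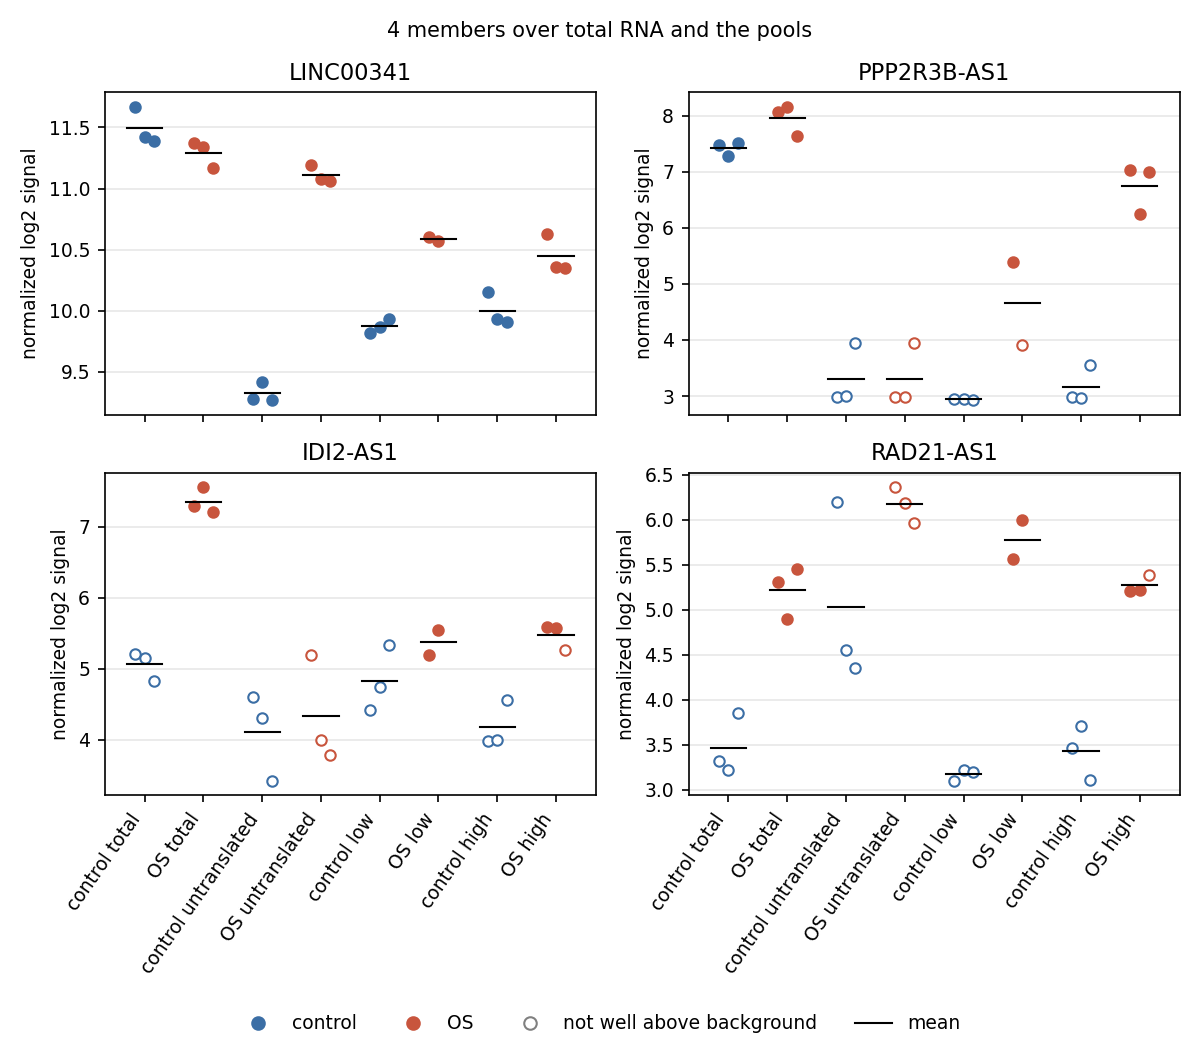
Normalized log2 signal (y axis) of LINC00341, PPP2R3B-AS1, IDI2-AS1 and RAD21-AS1 in the 8 groups (x axis); points are arrays, open where not well above background, and lines are group means. PPP2R3B-AS1 is open on every control pool array and filled on all 3 OS high arrays, and LINC00341 is higher in each OS pool than in its control pool, as it was under all 5 other scalings, but not in total RNA.

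In unstressed cells the place of an RNA on the gradient reflects how many ribosomes or other heavy complexes it carries. Coding RNAs are mostly found with many ribosomes, and many non-coding RNAs with none. The high was set against the untranslated pool in control. Of 33 members tested, 28 were called, 4 higher and 24 lower in the high pool. Fewer were called with both pools required to pass the signal filter, as given below with the other alternatives. That is 84.8% beside 77.8% of 18464 tested probes, of which 42.4% were called higher and 35.4% lower. The median of the tested members was -1.92, beside 0.17 over all tested probes, 0.59 over tested catalog probes of coding genes and -1.45 over tested catalog probes with only a non-coding accession. The size of this difference depends on the normalization. Catalog probes, mostly of mRNAs, were normalized apart from the custom lncRNA probes, and 44 pairs of identical probes present in both categories and measured on all arrays gave a median of -2.31 as catalog and -0.45 as custom probes. When all probes were normalized together the same pairs gave -1.53 and -1.45. The differences are thus relative to the catalog probes and not absolute. With the non-coding catalog probes normalized together with the custom probes, an alternative chosen after seeing these pairs, 23 members were called, 9 higher and 14 lower, with a median of -0.28. Normalized all together, 27 were called, 7 higher and 20 lower, with a median of -1.03; the 75th percentile gave 6 higher and 18 lower, and moves the median of all probes to -0.70. In the OS comparisons the median catalog minus custom difference was 0.12 in total RNA, -0.05 in the untranslated, 0.19 in the low and 0.10 in the high pool, and 0.12 in the shift. These offsets are small beside the differences of most named members but near the medians of the tested members in total RNA (0.14), the low pool (0.13), the high pool (0.16) and the shift (0.11), so nothing is read from those medians.

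Among the 27 called members whose values are shown, 21 were lower in the high pool under all 6 normalizations and 4 were higher under all 6. LINC00092 and A1BG-AS1 changed direction. MORC2-AS1, H1FX-AS1 and the second probe of TTC28-AS1 passed the signal filter only through the high pool, where they are high. BDNF-AS1, ABHD11-AS1, LINC00487 and the first probe of TTC28-AS1 passed only through the untranslated pool, where they are high. The filter sets part of these directions, so their agreement over the normalizations is no separate support. Among members measured in both pools OIP5-AS1 had the most negative difference, with 11.48, 11.44 and 11.42 in the untranslated pool and 6.91, 7.04 and 6.84 in the high pool. The pools were separated by far more than their spread (-4.51, SE 0.16, adjusted p = 5.9e-14; -3.82 to -2.79 under the other scalings). ZNFX1-AS1 (ZFAS1), a host of small nucleolar RNAs, read 15.86, 15.71 and 15.80 against 12.00, 12.01 and 11.71 (-3.89, SE 0.12, adjusted p = 9.8e-15). Under the other scalings this was -3.44 to -1.99, and its identical custom probe gave -1.99. LINC00476 read 10.37, 10.35 and 10.01 against 6.18, 6.81 and 6.12 (-3.87, SE 0.18, adjusted p = 1.1e-12), with -3.14 to -2.25 under the other scalings. All 3 were measured on each of these arrays and none overlapped.

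Higher in the high pool, by a measured difference or a bound, were MORC2-AS1, H1FX-AS1 and LINC00341. MORC2-AS1, opposite the chromatin ATPase gene MORC2, was at 6.63, 5.66 and 4.24 in the untranslated pool, on no array well above background, and at 8.84, 8.73 and 8.66 in the high pool. It was at least 4.64-fold higher there (difference 3.23, SE 0.47, adjusted p = 6.2e-06). H1FX-AS1, opposite a linker histone gene, was at 4.70, 2.97 and 3.16 against 6.29, 6.88 and 7.02. It was at least 1.15-fold higher (difference 3.12, SE 0.52, adjusted p = 2.9e-05). No untranslated array was well above background, so the size was not measured, and the other scalings gave 1.23 to 3.92. Custom probes of its transcript gave 3.39 and 4.11, but as little as 1.16 and 1.29 under the other scalings. LINC00341 differed by 0.67 (SE 0.10, adjusted p = 1.2e-05), and by 1.28 to 2.66 under the other scalings.

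**Figure D4:**
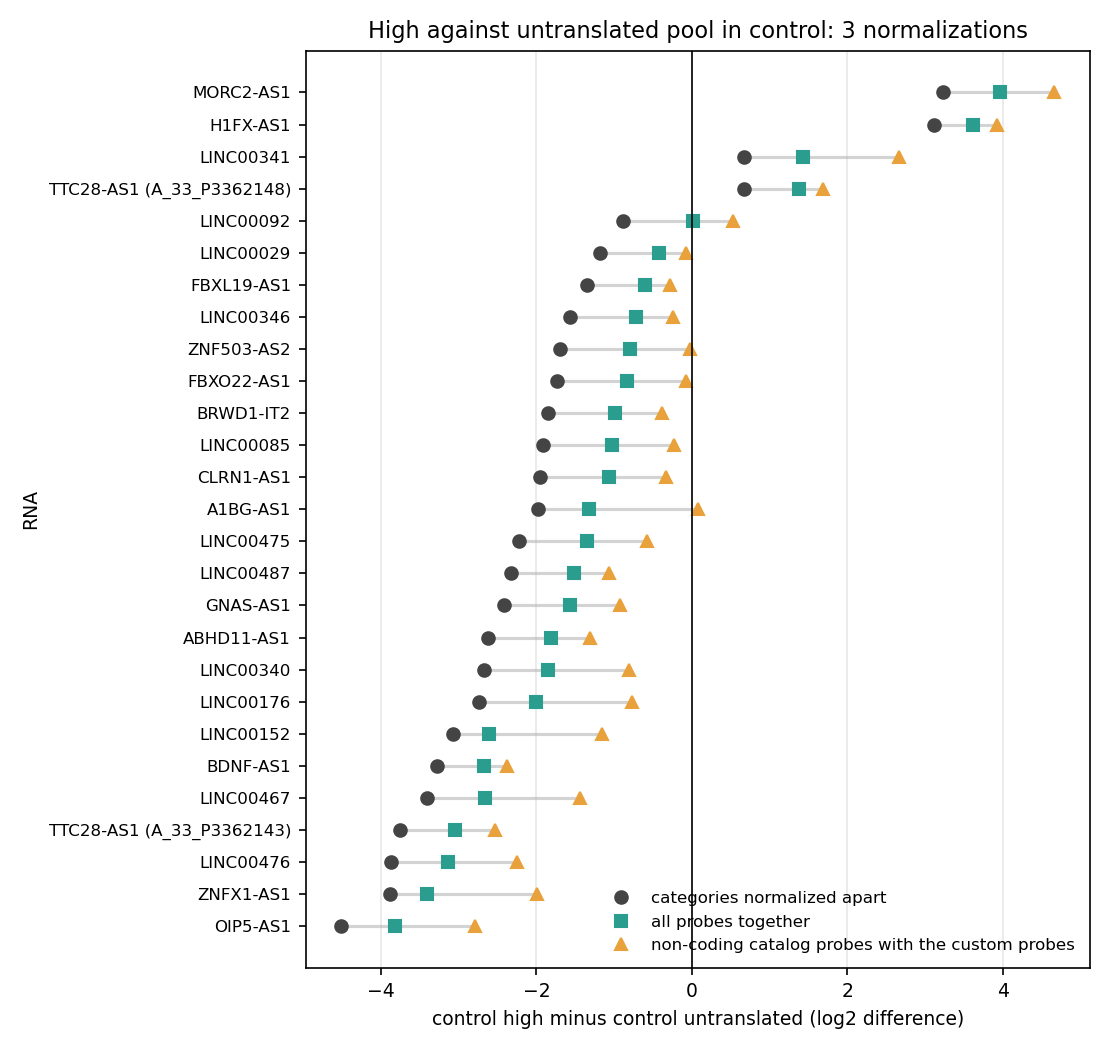
Control high minus control untranslated pool as a log2 difference (x axis) for 27 probe differences called in the members (y axis), with the categories normalized apart (circles), all probes together (squares) and the non-coding catalog probes with the custom probes (triangles). Every point moves to the right from circle to triangle; OIP5-AS1 stays the lowest at -2.79 or below, while LINC00092 and A1BG-AS1 cross 0.

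OS represses initiation, so many RNAs lose ribosomes, while some stress mRNAs gain them. The shift asks whether the place of an RNA on the gradient changed upon OS, as a single contrast over 4 groups. A positive shift means that the high pool gained relative to the untranslated pool, which a fall in the untranslated pool alone can give. The shift shares all its arrays with the comparisons within the untranslated and the high pool and is no separate evidence. Of 38 members tested, 10 were called, 9 with a positive and 1 with a negative shift. This is 26.3% beside 23.4% of 20276 probes (12.9% positive, 10.4% negative), again near the background in number, with a median of 0.11 beside 0.02. The split was 4 and 1 with all probes together and 2 and 1 at the 75th percentile, where over all probes the share of positive shifts among all calls went from 55.3% to 33% and the median of all probes was -0.18. All 10 directions held under the 5 other scalings, but calls held in all of them only for PPP2R3B-AS1, TTC28-AS1 and LINC00341. Leaving out 1 array gave 5 to 11 calls.

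PPP2R3B-AS1 had a computed shift of 3.59 (SE 0.50, adjusted p = 8e-05), from -0.14 in control to 3.45 upon OS. Of the 4 groups only OS high was well above background, so the size of this shift was not measured. The custom probes of this transcript gave 4.28 and 4.34. LINC00341 had the negative shift, from 0.67 to -0.66 (-1.33, SE 0.15, adjusted p = 1.1e-05), since its rise in the untranslated pool exceeded that in the high pool. TTC28-AS1 went from -3.76 to -2.40 by its first probe (1.36, SE 0.30, adjusted p = 0.0037), with 1 of 3 control high arrays well above background. A1BG-AS1, opposite a plasma glycoprotein gene, and ZNF503-AS2, opposite a zinc finger repressor gene, moved by 0.72 (SE 0.14, adjusted p = 0.0016) and 0.85 (SE 0.19, adjusted p = 0.0044). For both the untranslated pool fell while their high pool differences were not called, A1BG-AS1 for example reading 11.34, 11.37 and 11.21 in control and 10.80, 10.78 and 10.86 in OS untranslated RNA. The OIP5-AS1 shift of 0.72 (SE 0.23, adjusted p = 0.033) and the BDNF-AS1 shift of 1.64 (SE 0.56, adjusted p = 0.041) were called under none of the 5 other scalings. BDNF-AS1 was well above background on none of the 6 high pool arrays and on 1 of 3 OS untranslated arrays, so its shift rests on signals that were not measured.

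**Figure D5:**
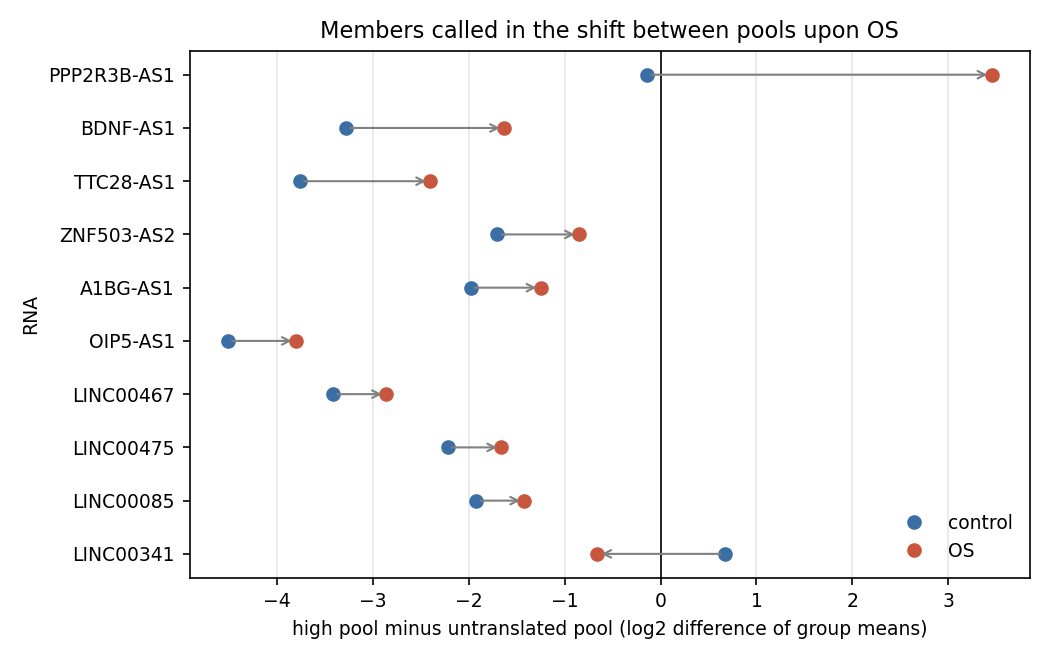
High minus untranslated pool (x axis, log2 difference of group means) in control (blue) and OS (red) for the 10 members called in the shift (y axis); arrows run from control to OS. The arrows of 9 members point to the right, that of PPP2R3B-AS1 (measured in OS high only) the longest, and the arrow of LINC00341 points from 0.67 to -0.66; these directions held under the 5 other scalings.

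For antisense, intronic and overlapping members the gene on the other strand could be set beside them. Of 58 such names, 35 had a coding partner with a catalog probe, in 44 probe pairs, 40 of them on opposite strands. No member called in total RNA or in the low pool had a partner called there, of 3 and 2 with a tested partner. Of all tested probes 16.4% and 9.51% were called in these comparisons, so nothing is read from so few pairs. In the untranslated pool, 3 of 4 called antisense RNAs with a tested partner had one that also fell: BDNF by -1.11 (adjusted p = 2.5e-06) and -0.76 (adjusted p = 2.7e-05) at its 2 probes, OIP5 by -1.02 (adjusted p = 0.00068) and ZNF503 by -0.53 (adjusted p = 0.0087). Of all tested probes in this pool 37.5% were called and 19.7% were called lower. In the high pool 2 of 3 called members with a tested partner had a called one, in the opposite direction. ZEB1 was lower by -0.60 (adjusted p = 0.00033) where ZEB1-AS1 was higher. ZNF295 was lower by -0.43 (adjusted p = 0.037) at 1 of its probes where ZNF295-AS1 was higher. Of all tested probes in the high pool 13.9% were called and 5.14% were called lower. In the shift 3 of 5 called members with a tested partner had a called one, 2 of them in the same direction. There 23.4% of all tested probes were called. Between the high and untranslated pools in control, 9 called members had a called partner, 5 of them with a partner probe in the same direction, where 77.8% of all tested probes were called. The difference was 3.80 for MORC2 (adjusted p = 3.8e-10), in the direction of MORC2-AS1, and -4.17 for A1BG, in that of A1BG-AS1, whose own direction depended on the normalization. OIP5 at -0.56 was in the direction of OIP5-AS1, but under only 1 of the 5 other scalings. The difference was 1.52 for ZNFX1 (adjusted p = 9.9e-09) and 2.28 for ZNF503 (adjusted p = 1.2e-10), against -3.89 and -1.70 for their antisense RNAs, the latter -0.02 with the non-coding catalog probes normalized with the custom probes. Of the 5 partners in the same direction, OIP5 and a BDNF probe (-0.89, -0.93 to 0.65 under the other scalings) did not keep theirs, and TTC28 counts for either direction, as its 2 probes were called at 3.55 and -2.83. The other partner directions named here held under the 5 other scalings. The difference between a member and its partner was not tested.

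Of the lists of names, the HOX antisense list held 1 member, HOXA11-AS1, which was in no group measured on every array. Of the imprinted loci, 1 of 3 members was measured, GNAS-AS1, antisense at the imprinted GNAS locus. It read 8.40, 8.68 and 9.02 in the control untranslated and 6.01, 6.39 and 6.44 in the control high pool (-2.42, SE 0.22, adjusted p = 9.6e-09). This difference was -1.57 to -0.92 under the 5 other scalings and -0.57 by its identical custom probe. No OS comparison called GNAS-AS1, with differences of 0.26, 0.00, 0.47 and 0.57 from total RNA to the high pool. Of 5 antisense RNAs of tumour, stress and disease genes 3 were measured. BDNF-AS1 and ZEB1-AS1 are described with their pools, and MCM3AP-AS1 was called in no comparison (0.93 in the low pool, adjusted p = 0.57). Of 7 characterised intergenic RNAs 3 were measured. The probe of LINC00152 matches CYTOR, known for promoting proliferation of tumour cells, and also MIR4435-2HG. It read 12.15, 12.32 and 12.12 in control high and 15.18, 15.29 and 15.33 in control untranslated RNA. The difference was -3.07 (SE 0.09, adjusted p = 1.1e-14), and -2.72 to -1.15 under the 5 other scalings. Identical custom probes gave -1.18 to -1.08. LINC00152 was called in no OS comparison, with estimates between -0.02 and 0.08. LINC00467 differed by -3.41 (SE 0.13, adjusted p = 1.6e-13) between these pools, and by -2.66 to -1.44 under the other scalings. LINC00312 was measured on all 6 total RNA arrays but on 3 of the 17 pool arrays, as was LINC00265, and its total RNA difference of 0.43 was not called (adjusted p = 0.54). None of the 4 antisense RNAs in the primer table of the study was among the members.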

How the data were processed

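Agilent custom arrays with 60-base probes held 17535 catalog and 44002 custom lncRNA probes (22007 transcripts). Per the file headers, Feature Extraction 10.7.3.1 wrote the processed signal, an intensity corrected for background, and its call for each spot of being well above background. A table in log2 was deposited too; it equals log2 processed signals quantile-normalized over all probes to within 0.0014. Here log2 processed signals were quantile-normalized apart for catalog and custom probes over 23 arrays, after leaving out replicate 3 of the OS low pool and 178 probes with an outlier mark, none of them a member. The study's methods also normalize coding and non-coding probes apart and remove arrays that failed to cluster, without naming them. Here the split is catalog against custom, so the members were normalized with the mostly coding catalog probes; the array was left out for its background calls, and dropping marked probes is a step added here. One mean per group was fitted over the 8 groups with limma 3.58.1 in R 4.3.3, and p-values were adjusted by Benjamini-Hochberg over all tested probes of both categories (threshold 0.05). Tables and figures were made with python 3.11.15, pandas 2.3.3, numpy 2.4.6 and matplotlib 3.10.9. The fit was tested on simulated data with known changes.

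Named were, in each comparison, up to 5 called members in each direction with the most extreme differences and no overlap between groups, the measured members of the lists and the names in the primer table of the study, with every probe of a named gene; other called members are given by their difference only. RFPL3-AS1, which was not called in total RNA, was added to show the shared spread. The members and lists were chosen with earlier results of these data known. Probe positions are those of the array design on GRCh37; promoter sequences are from RefSeq (GRCh38.p14), matched by accession and gene. Apart from the bounds for dim groups, no level of one probe is set against that of another. Alternatives were all 24 arrays, other normalizations and background correction, the deposited table, a looser and a stricter signal filter, a block for slide or for replicate number, control untranslated replicates 1 and 2 (which share a label number) averaged, the compared groups alone and each array left out in turn. Arrays give no counts, and their number limits the precision.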

Additional observations from a re-analysis of the deposited data

Results flagged for a closer look

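For 10 members the effect of OS in the high pool differed from that in the untranslated pool by the test of the difference itself, the single contrast over the 4 groups. The difference was 3.59 for PPP2R3B-AS1, 1.64 for BDNF-AS1, 1.36 for the first probe of TTC28-AS1, 0.85 for ZNF503-AS2, 0.72 for A1BG-AS1 and 0.72 for OIP5-AS1. Smaller positive differences were 0.56 for LINC00467, 0.55 for LINC00475 and 0.50 for LINC00085. LINC00341 was the 1 member with a negative difference, -1.33, as it rose in both pools and more in the untranslated pool. Of the 4 groups compared, PPP2R3B-AS1 was well above background in OS high only, and BDNF-AS1 on no high pool array and on 1 of 3 OS untranslated arrays. The sizes of these 2 differences were therefore not measured. TTC28-AS1 was measured on 1 of 3 control high arrays. The differences of LINC00475, LINC00467, OIP5-AS1, LINC00085 and BDNF-AS1 were called under none of the 5 other scalings. No cause of these differences was tested.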

How the results depend on the processing

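Of 42 differences of named members, 19 kept their call under every alternative that tested them and 23 lost it under at least 1. Both reversals came with all 24 arrays in the low pool, where LINC00346 became -0.16 and TTC28-AS1 -0.64; the array added has almost all probes above background. Counts of called members moved by over 1.5 times as follows. With all 24 arrays 5 were called in total RNA, 3 in the untranslated, 4 in the low and 2 in the high pool and 3 in the shift. Normalized together, and likewise with the deposited table, 3 were called in the low pool and 5 in the shift. The 75th percentile gave 3 in the untranslated, 2 in the low pool and 3 in the shift, and normexp 4 in the low pool and 6 in the shift. Without a filter on dim probes, 4 were called in the low pool, 44 in high against untranslated and 6 in the shift; a stricter filter gave 6 in total RNA, 2 in the high pool and 18 in high against untranslated, as fewer probes were tested. With only the compared groups in the fit, 16 were called in total RNA, 5 in the untranslated pool and 5 in the shift. The alternative chosen after seeing the data, non-coding catalog probes normalized with the custom probes, gave 4 in the low pool and 5 in the shift. The cause was not tested for the others. Leaving out 1 array gave 7 to 9 called in total RNA, 5 to 12 in the untranslated, 3 to 5 in the low and 3 to 6 in the high pool, 27 to 30 in high against untranslated and 5 to 11 in the shift. The arrays whose removal moved a count by over 1.5 times were replicate 1 of control untranslated (5) and of OS untranslated (6), replicates 1 and 2 of control low (3 each), replicate 2 of OS low (4), replicate 1 of control high (3), and for the shift replicates 1 and 3 of control high (6 each), replicates 1 (5) and 3 (6) of OS untranslated and replicate 3 of OS high (5). With 1 array of OS low left, it is assumed to vary like the other groups. Beyond the calls named above, LINC00467 lost its total RNA call without control replicate 1 (0.49) or 2 (0.46) or OS replicate 3 (0.42). In the low pool, RFPL1-AS1 lost its call without control replicate 1 (1.04) or 2 (0.92) or OS replicate 1 (1.18) or 2 (0.96), and TTC28-AS1 without control replicate 1 (0.67) or 2 (0.76) or OS replicate 2 (0.43). FBXL19-AS1 in the untranslated pool lost it without control replicate 1 (-0.93) as well, and BDNF-AS1 there without any array but control replicate 2. The BDNF-AS1 shift was lost without any of 8 of its 12 arrays (1.07 to 1.72), that of OIP5-AS1 without 6 (0.56 to 0.71), and that of LINC00467 without 10 (0.48 to 0.59). Correlations of deviations between same-numbered arrays ran from -0.471 to 0.465. In every group but control untranslated each replicate number had its own slide. Without that group the correlations ran from 0.127 to 0.465 for replicates 1 and 3, and from -0.273 to -0.000431 for replicate 2. These values do not settle whether same-numbered samples are paired, so fits with either block are given. With the replicate block 12, 10, 8, 8, 28 and 11 members were called in the 6 comparisons in the order of the report. With the slide block 12, 11, 8, 7, 28 and 11 were called. The replicate block ended the high pool call of ZEB1-AS1 (0.96, adjusted p = 0.055). With control untranslated replicates 1 and 2, which share a label number, averaged, 12, 10, 7, 6, 29 and 8 were called, and the shifts of LINC00467 (0.54, adjusted p = 0.067) and OIP5-AS1 (0.71, adjusted p = 0.052) lost their call. Signal over background limits what can be seen, as 57 of 128 probes were measured nowhere.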

Other observations

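By naming class, 4 of 24 tested antisense RNAs and 4 of 19 tested intergenic RNAs were called higher upon OS in total RNA, beside 8.52% of all tested probes, and all of the 2 lower calls were intergenic. In the high pool 5 of 21 tested antisense probes and 1 of 14 intergenic probes were called higher, beside 8.78% of all tested probes. In the shift 6 of 22 tested antisense probes and 3 of 15 intergenic probes were called with a positive difference, beside 12.9% of all tested probes. Of the 5 antisense calls in the high pool, 4 passed the signal filter only through OS high, where they are high, so the counts describe the tested probes and support no direction. These classes follow the array names, though RefSeq now lists LINC00476 as ERCC6L2-AS1, PPP2R3B-AS1 as LINC00685 and LINC00085 as the coding gene SPACA6. No difference between the classes was tested. Over all tested catalog probes with only a non-coding accession, 14.5% were called higher and 3.42% lower in the high pool, beside 6.8% and 6.73% of coding catalog probes. Probes that passed the signal filter only through OS high are counted here too. The non-coding probes were normalized with the mostly coding catalog probes, and the catalog minus custom difference in this pool was 0.10. No direction is therefore read from these shares, whose difference was not tested.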
